A study of Mus musculus with 17 samples.

Results

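The AP-1, ATF and EGR factors examined here are 10 genes, namely Fos, Fosl1, Fosl2, Jun, Junb, Jund, Atf3, Batf, Egr1 and Egr2. They were chosen by gene symbol, each symbol was found once among the 21683 rows of the expression table, and all 10 passed the filter on low values. RNA-Seq had been performed on mouse thioglycollate-elicited peritoneal macrophages (PMs) in 17 libraries of 3 groups. The first group was PMs of IKKβ F/F mice, treated with PBS in culture (F/F PBS, called the PBS group, n = 6), the second the same genotype given Tat at 100 nM (F/F Tat, n = 6) and the third IKKβ ΔMye PMs given Tat at 100 nM (ΔMye Tat, n = 5). Tat is the transactivator protein of HIV, here a recombinant first-exon form that the study made in E. coli and cleared of endotoxin, and the controls received PBS only, so an effect of anything carried over with the protein cannot be told apart from one of Tat. The mice were on a C57BL/6 background, were 8 weeks old and, per the study's methods, male. All of them carried floxed alleles of Ikbkb, which encodes the kinase IKKβ of the NF-κB pathway. The ΔMye mice also carried 1 copy of Cre knocked into the Lyz2 (LysM) locus, which acts in macrophages and in other myeloid cells. The mice had received 1 mL of 3% thioglycollate 3 days before collection per the labels, although the methods give another interval, and treatment lasted 12 h after 4 h of attachment. IKKβ ΔMye PMs given PBS were not analysed here, so a difference between the Tat groups can include one that was present without Tat. The study calls the libraries of a group biological replicates of mice, whereas the labels name no animals, and the p-values measure the spread between these libraries.

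AP-1 is a dimer of basic leucine zipper proteins. FOS proteins (Fos, Fosl1, Fosl2) bind DNA as partners of JUN proteins (Jun, Junb, Jund), whereas JUN proteins can also pair with each other. Batf is a small family member without a transactivation domain that pairs with JUN proteins and acts with IRF factors, and Atf3 is a stress-induced member of the ATF/CREB branch that often acts as a repressor of inflammatory genes. Egr1 and Egr2 are zinc finger factors. Many of these genes are immediate-early genes, whose transcripts rise within minutes of a signal through MAP kinases and SRF and soon fall again, so that a sample taken 12 h after a stimulus does not show the first wave.

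Expression was given as TPM, the abundance of a transcript relative to all others in its library, which is scaled for transcript length, so levels of different genes can be compared on that scale. TPM hold no read counts, and the depth of the libraries and the counting error are unknown. The listed TPM summed to between 889318 and 903576 per library, and the lowest correlation between libraries of 1 group was 0.984. Ikbkb was at 24.5 to 30.1 TPM in the PBS group, 21.6 to 25.4 TPM in F/F Tat, and 12.8 to 19.9 TPM in the ΔMye libraries, and its log2 fold change between the Tat groups was -0.51 (adjusted p = 4.51e-05, limma). The median tested gene differed by -0.65 on the log2 scale from PBS to F/F Tat, by 0.22 between ΔMye Tat and F/F Tat and by -0.43 from PBS to ΔMye Tat. Values are therefore also given after median-ratio scaling of the libraries, where these medians were -0.029, 0.014 and -0.013.

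Markers of the labelled cell type were present, with 7 of 7 macrophage genes at 1 TPM or more in each group. Their summed level moved with the groups, from 25603 to 26604 TPM in PBS and 9432 to 10073 TPM in F/F Tat, against 7004 to 7323 TPM in ΔMye Tat, and Lyz2, the locus that carries Cre, made up most of it. Of the single genes, 5 of the 7 genes (Adgre1, Csf1r, Cd68, Itgam and Mertk) had a higher mean TPM in ΔMye Tat than in F/F Tat, and Lyz2 and Fcgr1 a lower one. The dendritic cell list had 1 of 4 genes at 1 TPM (Ccr7) and summed to 6.73 to 14.9, 41.3 to 46.1 and 22.4 to 26.8 TPM in the same order of groups. The T cell list had 2, 0 and 5 of 5 measured genes at 1 TPM and summed to 3.20 to 7.85, 1.82 to 2.95 and 6.78 to 9.17 TPM. Neutrophil genes summed to 54.0 to 67.3, 63.9 to 76.3 and 86.2 to 102 TPM, nearly all of it S100a8, with 3, 1 and 1 of 5 genes at 1 TPM and Mpo listed at 0 in PBS. The innate lymphoid list (145 to 175 TPM over all libraries, nearly all Il7r) had 4 of 5 genes at 1 TPM in each group. The B cell list (8.33 to 25.7 TPM) had 4, 4 and 3 of 5, the NK cell list (4.07 to 8.11 TPM) 1 of 4 in each group, and the mast cell list (24.9 to 46.3 TPM) 5 of 6 in each. Eosinophil genes summed to 0.410 to 1.21 TPM with 0 of 4 at 1 TPM, Prg2 listed at 0 in PBS and Epx at 0 in both Tat groups, and mesothelial and fibroblast genes to 3.28 to 10.8 TPM with 3, 1 and 1 of 5. The part of these cells in the results below was not tested, and in such bulk samples fewer cells of a type and less RNA per cell cannot be told apart.

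The promoters of Fos, Jun and Junb are shown because the shares of these genes in their AP-1 families moved between the groups. Fosl2 moved as well, but its window overlaps an annotated UTR and is not shown. Each sequence is the 250 bases before the annotated start (RefSeq, GRCm38.p6), read 5′ to 3′ on the strand of the gene, and capitals mark the motif matches named after them.
Fos, chr12:85473640-85473889 (+): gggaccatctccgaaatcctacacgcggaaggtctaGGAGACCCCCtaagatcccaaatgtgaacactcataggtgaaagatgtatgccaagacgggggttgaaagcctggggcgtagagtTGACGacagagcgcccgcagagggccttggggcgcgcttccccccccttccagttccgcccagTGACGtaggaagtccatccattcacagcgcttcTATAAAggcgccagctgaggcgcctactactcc
Jun, chr4:95052223-95052472 (-): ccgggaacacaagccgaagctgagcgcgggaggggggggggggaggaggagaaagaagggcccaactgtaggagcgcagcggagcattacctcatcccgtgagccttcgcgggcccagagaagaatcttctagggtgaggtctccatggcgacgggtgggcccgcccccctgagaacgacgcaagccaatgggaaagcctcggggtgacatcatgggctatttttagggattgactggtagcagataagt
Junb, chr8:84978749-84978998 (-): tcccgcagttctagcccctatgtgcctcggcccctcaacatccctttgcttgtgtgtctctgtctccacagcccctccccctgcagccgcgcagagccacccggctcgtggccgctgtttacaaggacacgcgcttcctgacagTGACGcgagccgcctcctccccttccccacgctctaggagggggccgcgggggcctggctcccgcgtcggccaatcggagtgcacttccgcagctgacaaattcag
Promoters of 8 of the 10 genes were matched, and those of Fosl1 and Egr1 were not. Both strands were searched, with overlapping matches allowed. A gene was counted if any of its windows matched, and Egr2 had 5 windows, whereas the shares below are of single promoters. The core TGACG of a cAMP response element stood at -129 and -66 of Fos and at -106 of Junb, counted from the start. It occurred in 5 of the 8 genes (Atf3, Batf, Egr2, Fos and Junb) and in 20.8% of all 20209 promoters of this length. The whole element TGACGTCA, which contains that core, occurred in 0 of the 8 genes and 1.99% of all promoters, the AP-1 site TGANTCA in 0 of 8 and 6.20%, and the EGR site GCGTGGGCG in 0 of 8 and 0.757%. A κB site occurred in 3 genes (Egr2, Fos at -214, and Fosl2) and 8.02% of all promoters, and a CArG box, the binding motif of SRF, in 1 gene (Egr2) and 1.37%. The TATA box TATAAA stood at -33 of Fos alone among the 8 genes and in 11.3% of all promoters, and the core of an interferon-stimulated response element in Fosl2 and in 3.00%. None of these motifs was found in the Jun window. A match describes letters in this window only. The Jund window (chr8:70697489-70697738) lies upstream of, and not next to, the start of Jund in the coordinates given below (70698949).

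With Tat, the balance of members within each AP-1 family differed from that with PBS. Fos and Jun fell steeply, Fosl2 and Fosl1 rose, Junb, Batf and Atf3 rose by a smaller factor to high levels, Jund rose a little and Egr2 fell. Fosl1 and Fosl2 were called higher and Fos and Jun lower, where a call needed a fold change over 3 together with an adjusted p under 0.01. That is 2 of 10 genes higher and 2 lower, where 5.21% of the 10451 tested genes were called higher and 19.4% lower. At the adjusted p alone, 6 genes rose and 3 fell, where 17% of tested genes rose and 67.6% fell. The median log2 fold change was 0.90 over the 10 genes and -0.65 over all tested genes. After median-ratio scaling 5 genes were called higher and 2 lower, as Junb, Batf and Atf3 then passed the fold threshold too, beside 8.51% and 9.76% of tested genes. All 10 genes had ranges that were apart, with 7 above and 3 below PBS, whereas 15.3% of tested genes lay wholly above and 62.4% wholly below.

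**Figure D1:**
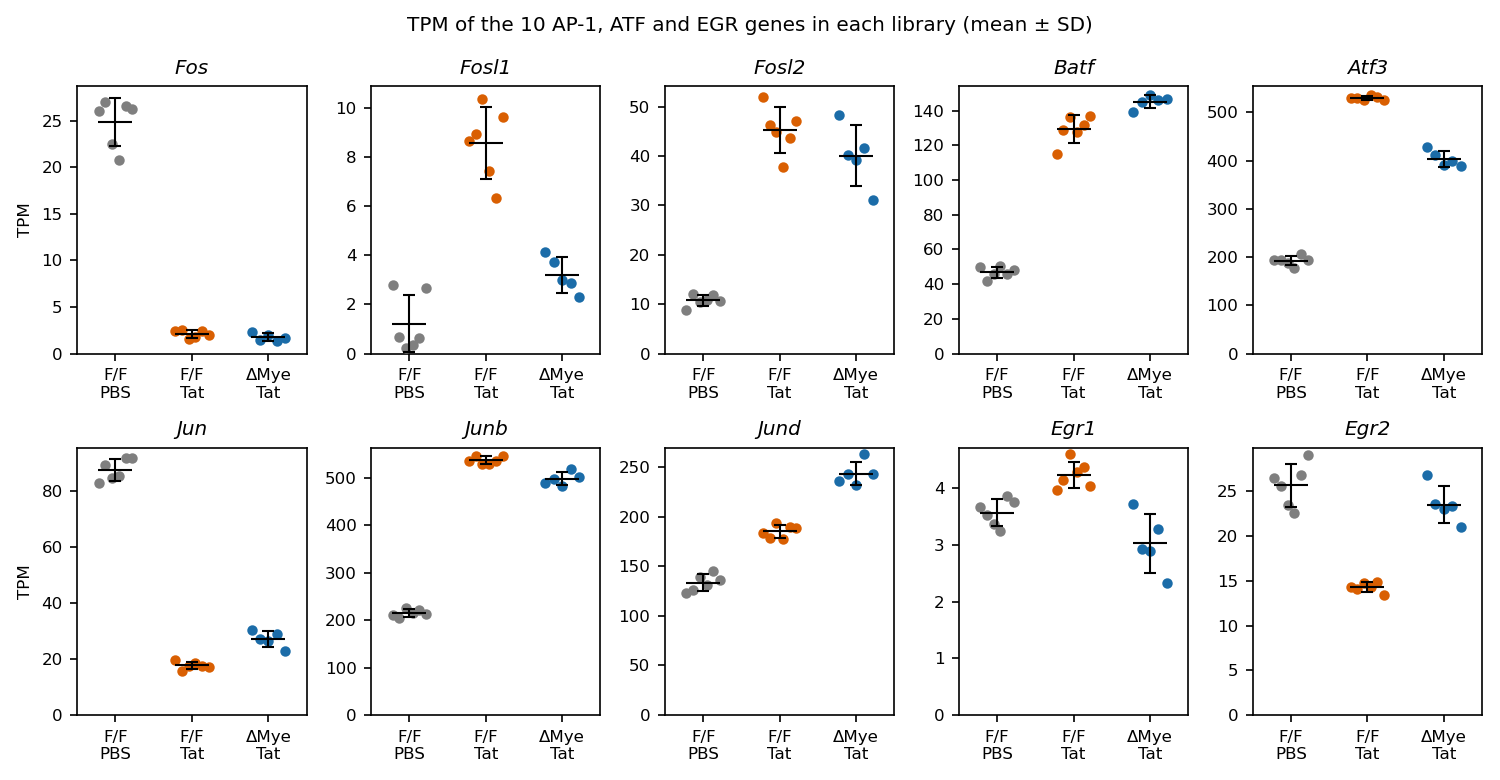
TPM (vertical axes, each starting at 0 on its own scale) of the 10 genes in each library of F/F PBS (grey, n = 6), F/F Tat (orange, n = 6) and ΔMye Tat (blue, n = 5), with the mean (line) and the SD (bars). Fos and Jun sit highest in PBS, at 24.9 and 87.5 TPM on average, whereas Fosl2, Batf, Atf3 and Junb sit lowest there.

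Fos, the founding member of the family, lies on chromosome 12 (chr12:85473890-85477273, GRCm38, plus strand). It was at 20.8 to 27.0 TPM in the PBS libraries (median 26.2) and at 1.52 to 2.51 TPM in the F/F Tat libraries (median 2.19). The ΔMye Tat libraries held 2.33, 1.47, 2.04, 1.37 and 1.67 TPM. All 11 libraries given Tat were low and the Tat groups overlapped. The mean fell from 24.9 ± 2.57 TPM (SD, n = 6) to 2.10 ± 0.388 TPM (n = 6), 11.8-fold lower, at a log2 change of -3.52 (standard error 0.14, adjusted p = 4.67e-15, limma), or -2.90 after scaling. Between the Tat groups Fos differed by -0.23 (adjusted p = 0.160, limma), which did not pass the test. After scaling the difference was -0.44 (adjusted p = 0.0113) and after quantile normalization -0.52 (adjusted p = 0.00280, limma).

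Fosl2, which encodes Fra-2 (chr5:32135801-32157842, plus strand), went the other way. The PBS libraries held 8.83 to 12.1 TPM (median 10.8) and the F/F Tat libraries 37.8 to 52.0 TPM (median 45.6). In ΔMye Tat it was at 48.3, 40.3, 39.3, 41.6 and 31.1 TPM. Each Tat library was thus above each PBS library, and the Tat groups overlapped. With Tat the mean rose 4.20-fold, from 10.8 ± 1.17 to 45.3 ± 4.65 TPM (SD, n = 6 each), a log2 change of 2.06 (standard error 0.09, adjusted p = 7.93e-14, limma), or 2.69 after scaling. The difference between the Tat groups was -0.18 (standard error 0.10, adjusted p = 0.120, limma), although it passed after scaling, at -0.40 (adjusted p = 4.49e-04), and after quantile normalization, at -0.30 (adjusted p = 0.00685).

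Fosl1, which encodes Fra-1, lies at chr19:5447547-5455946 (plus strand). It was at 2.80, 0.670, 0.227, 0.357, 0.6247 and 2.66 TPM in the PBS libraries, so that PBS libraries 1 and 6 stood above the other 4. The F/F Tat libraries held 6.34 to 10.4 TPM (median 8.81) and the ΔMye Tat libraries 4.13, 3.73, 3.01, 2.88 and 2.29 TPM. F/F Tat was thus above both other groups without overlap, whereas the ranges of ΔMye Tat and PBS met. The rise with Tat was 7.01-fold, from 1.22 ± 1.18 to 8.57 ± 1.47 TPM (SD, n = 6 each), with a log2 change of 3.20 (standard error 0.42, adjusted p = 6.47e-07, limma), or 3.77 after scaling. Between the Tat groups the ΔMye mean of 3.21 ± 0.725 TPM (n = 5) was 37.4% of the F/F mean. That difference of -1.40 (standard error 0.44, adjusted p = 0.0101, limma) missed the threshold narrowly. An exact two-sided permutation test on this gene alone gave p = 0.00433, the smallest value that 6 libraries against 5 allow. Any gene whose 2 groups do not overlap gets this value, so it only restates the ranges. The shared fit includes the uneven PBS libraries, and without PBS library 1, 3, 4 or 6 the adjusted p was between 0.00336 and 0.00806 (limma). Over the other settings it ranged from 5.11e-06 to 0.0344, and after median-ratio scaling the difference was -1.61 (adjusted p = 0.00439) and was called.

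Transcripts of Fosl1 share 54.5% of their 31-base sequences with Ccdc85b, a gene that overlaps it on the opposite strand. The strand of the libraries was not given in the sources used here, so reads of these 2 genes may have been mixed and the level of Fosl1 is uncertain. Ccdc85b was at 4.30 ± 0.444 TPM in PBS and 0.512 ± 0.111 TPM in F/F Tat, against 0.903 ± 0.131 TPM in ΔMye Tat, an order opposite to that of Fosl1.

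Batf stands 209395 bases from Fos on the same strand of chromosome 12 (chr12:85686669-85709087), yet its transcript moved in the other direction. The level was 41.8 to 50.5 TPM in PBS (median 47.0) and 115 to 137 TPM in F/F Tat (median 130.2). ΔMye Tat libraries held 139, 145, 149, 146 and 147 TPM. The 3 groups were thus stacked without overlap, with ΔMye Tat on top. The mean was 2.76-fold higher with Tat, at 46.9 ± 3.20 against 129 ± 8.07 TPM (SD, n = 6 each), at a log2 change of 1.46 (standard error 0.05, adjusted p = 2.69e-16, limma), or 2.09 after scaling. The further difference of 0.17 in ΔMye Tat (adjusted p = 0.00645, limma) is smaller than the 0.22 of the median gene, turned to -0.044 after scaling (adjusted p = 0.605) with overlapping groups, and is not firm. Its adjusted p also rose above 0.01 without F/F Tat library 7, 8 or 10 or ΔMye library 20, 21, 22 or 23, at 0.0116 to 0.0174 (limma). Jdp2, a repressor of AP-1 that was named after its values were seen, lies between Fos and Batf (chr12:85599027-85639878). It fell with Tat from 32.1 to 11.7 TPM (log2 fold change -1.46, adjusted p = 2.56e-17, limma) and was at 21.6 TPM in ΔMye Tat.

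Atf3 (chr1:191170296-191218039, minus strand) was the second of the 10 transcripts by TPM in each group. It was at 178 to 207 TPM in PBS (median 194) and at 526 to 537 TPM in F/F Tat (median 529.9), where the libraries differed least of any gene and group here, with a coefficient of variation of 0.742%. The ΔMye Tat libraries held 428, 413, 391, 400 and 389 TPM. They lay between the F/F groups, with no overlap on either side. The mean rose 2.75-fold with Tat, from 193 ± 9.50 to 530.3 ± 3.93 TPM (SD, n = 6 each), a log2 change of 1.46 (standard error 0.03, adjusted p = 4.78e-19, limma), or 2.09 after scaling. In ΔMye Tat the mean of 404 ± 16.4 TPM (n = 5) was 76.2% of that in F/F Tat. This drop of -0.39 on the log2 scale (standard error 0.03, adjusted p = 9.21e-09, limma) became -0.61 after scaling.

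In the JUN family, Jun itself fell and its relatives rose. Jun has 1 exon and lies at chr4:95049034-95052222 on the minus strand. The PBS libraries held 82.7 to 91.7 TPM (median 87.3), the F/F Tat libraries 15.8 to 19.8 TPM (median 17.5) and the ΔMye Tat libraries 30.5, 27.2, 26.4, 28.9 and 22.8 TPM. No groups overlapped, and ΔMye Tat lay above F/F Tat but far below PBS. Jun was 4.94-fold lower with Tat, with 87.5 ± 3.89 against 17.7 ± 1.32 TPM (SD, n = 6 each), at a log2 change of -2.30 (standard error 0.06, adjusted p = 1.89e-17, limma), or -1.67 after scaling. In ΔMye Tat the level was 1.53-fold that in F/F Tat, a log2 difference of 0.61 (standard error 0.07, adjusted p = 2.52e-07, limma), or 0.40 after scaling. The antisense transcript Junos holds 6.39% of its 31-base sequences.

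Junb, which often opposes Jun at shared targets (chr8:84974484-84978718, minus strand), was the most abundant of the 10 genes in each group. It was at 205 to 226 TPM in PBS (median 214), at 528 to 546 TPM in F/F Tat (median 535) and at 488, 497, 483, 519 and 501 TPM in ΔMye Tat. The groups did not overlap, and ΔMye Tat sat just under F/F Tat. With Tat the mean rose 2.49-fold, from 215 ± 7.80 to 537 ± 8.10 TPM (SD, n = 6 each), at a log2 change of 1.32 (standard error 0.03, adjusted p = 1.23e-19, limma), or 1.95 after scaling. The ΔMye Tat mean of 498 ± 14.0 TPM (n = 5) was lower by a small amount, with a log2 difference of -0.11 (adjusted p = 0.00230, limma), -0.32 after scaling and -0.073 (adjusted p = 0.0575) after quantile normalization. Junb shares 6.51% of its 31-base sequences with Prdx2, which was at 123, 69.9 and 75.5 TPM on average in PBS, F/F Tat and ΔMye Tat.

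Jund, the member that is expressed most steadily in resting cells (chr8:70698949-70700616, plus strand, 1 exon), rose in steps over the groups. The range was 123 to 146 TPM in PBS (median 133), 177 to 193 TPM in F/F Tat (median 186) and 232 to 263 TPM in ΔMye Tat (236, 243, 232, 263 and 243). Each group lay wholly above the one before. The log2 fold change with Tat was 0.47 (standard error 0.04, adjusted p = 1.31e-09, limma), or 1.10 after scaling, and that between the Tat groups was 0.40 (standard error 0.04, adjusted p = 2.32e-07, limma), or 0.18 after scaling (adjusted p = 0.00259). Since 50.1% of its 31-base sequences also occur in the antisense transcript Gm11175, which is not in the table used here, these levels are uncertain.

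**Figure D2:**
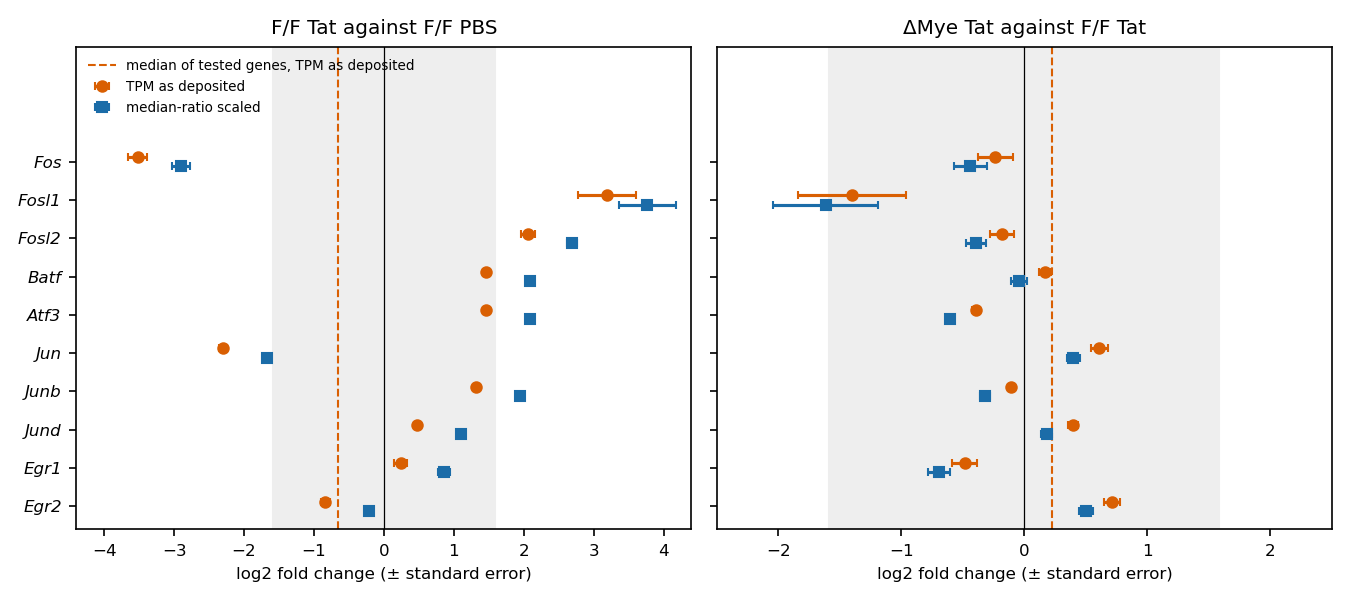
Log2 fold change (horizontal axes) of the 10 genes in F/F Tat against F/F PBS (left) and in ΔMye Tat against F/F Tat (right), from TPM as deposited (orange circles) and after median-ratio scaling (blue squares), with bars of 1 standard error. The grey band spans fold changes under 3 and the dashed line is the median tested gene. The genes range from -3.52 to 3.20 on the left and from -1.40 to 0.71 on the right, where all as-deposited points are inside the band.

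The EGR factors differed from each other. Egr1 (chr18:34859823-34864984, plus strand), a classic immediate-early gene, was low throughout, at 3.25 to 3.87 TPM in PBS (median 3.59), 3.96 to 4.61 TPM in F/F Tat (median 4.22) and 3.72, 2.93, 2.89, 3.28 and 2.33 TPM in ΔMye Tat. F/F Tat lay just above both other groups, which overlapped. The log2 fold change with Tat was 0.24 (standard error 0.10, adjusted p = 0.0262, limma) and did not pass the test. The exact two-sided permutation test gave p = 0.00216, the smallest that 6 libraries against 6 allow. All 10 genes got this value with Tat, as their groups did not overlap, so it only restates the ranges. After median-ratio scaling the fold change was 0.86 (adjusted p = 1.51e-08) and after quantile normalization 1.23, and over all settings the direction was the same. In ΔMye Tat the mean was 3.03 ± 0.514 TPM (SD, n = 5) against 4.24 ± 0.235 TPM (n = 6) in F/F Tat, a fall of -0.49 on the log2 scale (standard error 0.10, adjusted p = 4.64e-04, limma), or -0.70 after scaling.

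Egr2, known in macrophages as a regulator that restrains or redirects activation (chr10:67535475-67542188, plus strand), fell with Tat and was higher in ΔMye Tat. It was at 22.6 to 29.1 TPM in PBS (median 26.1), 13.4 to 14.9 TPM in F/F Tat (median 14.3) and 26.8, 23.6, 22.98, 23.3 and 20.98 TPM in ΔMye Tat. F/F Tat was low without overlap, and the other groups shared 1 range, although after scaling ΔMye Tat lay wholly above PBS. The fold change with Tat was -0.84 on the log2 scale (standard error 0.06, adjusted p = 2.21e-10, limma), close to that of the median gene, and -0.21 after scaling (adjusted p = 0.00185). Between the Tat groups Egr2 was 1.64-fold higher in ΔMye Tat, at a log2 difference of 0.71 (standard error 0.07, adjusted p = 3.99e-08, limma), or 0.50 after scaling, the highest of the 10 genes on both scales.

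Between ΔMye Tat and F/F Tat, the log2 differences of the 10 genes ran from -1.40 (Fosl1) to 0.71 (Egr2). With both thresholds, limma called 0 genes higher and 0 lower, beside 0.440% and 0.316% of tested genes. At an unadjusted p under 0.05 (limma), 4 were higher and 4 lower, and the share of all tested genes at that threshold was not taken. At the adjusted p alone 4 genes were higher (Jun, Jund, Batf and Egr2) and 3 lower (Junb, Atf3 and Egr1), where 38.8% of tested genes were higher and 8.87% lower. The median log2 difference was -0.15 over the 10 genes and 0.22 over all tested genes. After scaling 3 genes were higher (Jun, Jund and Egr2) and 5 lower (Fosl1, Fosl2, Junb, Atf3 and Egr1), beside 16.4% and 18.8% of tested genes. Fosl1 was then called lower, as were 0.603% of tested genes. The groups did not overlap for 4 genes above and 4 below F/F Tat, beside 28.6% and 8.01% of tested genes. The F/F Tat libraries enter both this comparison and that with PBS, so the values are set side by side and no relation between them was tested. Atf3 differed by 1.46 with Tat and by -0.39 in ΔMye Tat, Fosl1 by 3.20 and -1.40, Jun by -2.30 and 0.61, and Egr2 by -0.84 and 0.71. Fosl2 differed by 2.06 and -0.18, Fos by -3.52 and -0.23, Junb by 1.32 and -0.11, Batf by 1.46 and 0.17, and Jund by 0.47 and 0.40. Egr1 differed by 0.24 with Tat and by -0.49 in ΔMye Tat. After scaling Egr2 differed by -0.21 with Tat and by 0.50 in ΔMye Tat.

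Against PBS, ΔMye Tat had 3 genes called higher (Fosl1, Fosl2 and Batf) and 2 lower (Fos and Jun), beside 4.38% and 11.1% of tested genes. The log2 fold changes were -3.75 for Fos, -1.69 for Jun, 1.88 for Fosl2, 1.79 for Fosl1 and 1.63 for Batf. Junb differed by 1.21, Atf3 by 1.07 and Jund by 0.87, each at an adjusted p of 3.64e-13 or less (limma). The fall of Jun was -1.27 after scaling, short of the fold threshold. The call of Fosl1 was not firm, as its ratio of mean TPM was 2.62 and its range met that of PBS. With 0.5 or 1 added to the TPM instead of 0.1, its log2 fold change was 1.35 or 1.06, short of the threshold. Without PBS library 3 it was 1.49, also short, whereas after scaling it was 2.16 and called. Egr1 and Egr2 had no firm direction here. Egr1 was at -0.25 (adjusted p = 0.0324, limma), 0.16 after scaling (adjusted p = 0.103) and 0.51 after quantile normalization (adjusted p = 1.60e-05, limma). Egr2 was at -0.13 (adjusted p = 0.0882, limma) and 0.16 after quantile normalization (adjusted p = 0.0230). After scaling Egr2 was at 0.29 (adjusted p = 1.32e-04, limma), with ΔMye Tat wholly above PBS.

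The share of each gene in the summed TPM of its family does not depend on how libraries are scaled. Of the FOS family (Fos, Fosb, Fosl1 and Fosl2), Fos made up 64.8 to 69.1% in PBS and 2.66 to 4.56% in F/F Tat, against 2.98 to 4.78% in ΔMye Tat. Fosl2 made up 29.4% ± 3.75 (SD, n = 6), 80.8% ± 1.60 (n = 6) and 88.9% ± 1.00 (n = 5), and Fosl1 3.20% ± 3.02, 15.3% ± 2.14 and 7.07% ± 0.788, in the same order. The main FOS transcript was thus Fos with PBS and Fosl2 with Tat in either genotype. The share of Fosl2 was 78.9 to 83.2% in F/F Tat, against 88.2 to 90.7% in ΔMye Tat, without overlap. Its TPM overlapped between these groups, and the uncertain level of Fosl1 enters each share of this family. Fosb made up 0.105, 0.190 and 0.0260% on average. The family summed to 36.9 ± 3.42 TPM in PBS and 56.1 ± 5.57 TPM in F/F Tat, against 45.1 ± 7.01 TPM in ΔMye Tat.

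In the JUN family, Jun made up 20.1% ± 0.864 (SD, n = 6) in PBS, 2.40% ± 0.194 (n = 6) in F/F Tat and 3.54% ± 0.379 (n = 5) in ΔMye Tat. Junb held the largest share in all 3 groups, at 49.3, 72.6 and 64.8%, and Jund held 30.6, 25.0 and 31.7%. Jund and Jun thus each had a larger share in ΔMye Tat than in F/F Tat, and Junb a smaller one, with no overlap for any of them. The uncertain level of Jund enters each of these shares. The family summed to 436 ± 16.7, 739 ± 9.13 and 768 ± 26.0 TPM.

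**Figure D3:**
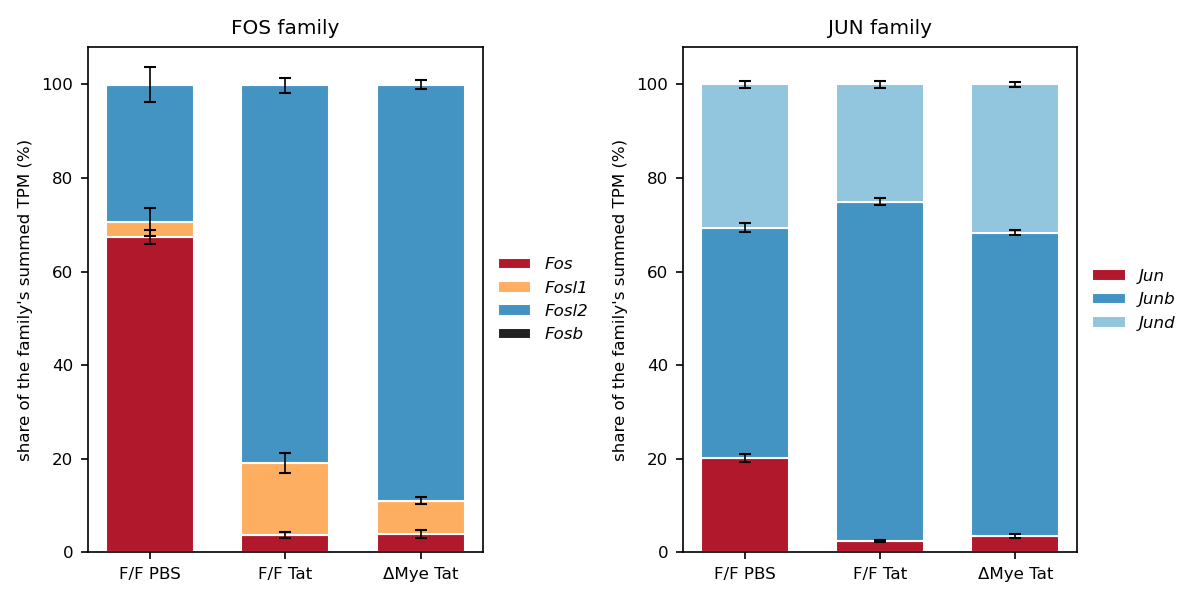
Mean share (vertical axis, percent) of each gene in the summed TPM of the FOS family (left) and the JUN family (right) in F/F PBS (n = 6), F/F Tat (n = 6) and ΔMye Tat (n = 5), with the SD of a share at the top of its segment. Fos fills 67.3% of its family in PBS and under 5% with Tat, and Fosb is too small to be seen.

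Ratios within a library showed the same shift gene by gene. There were 2.46 ± 0.146 Junb transcripts for each Jun transcript in PBS and 30.5 ± 2.59 in F/F Tat, against 18.5 ± 2.16 in ΔMye Tat, and the ranges of the 3 groups were apart. Fosl2 over Fos was 0.437 ± 0.0624, 22.1 ± 4.22 and 23.3 ± 5.30, with Tat groups that overlapped. Atf3 over Jun was 2.20 ± 0.0935, 30.1 ± 2.15 and 15.0 ± 1.28, again with 3 separate ranges. Batf over Fos was 1.91 ± 0.300, 63.9 ± 15.6 and 85.1 ± 19.1, and the Tat groups overlapped. Egr2 over Egr1 was 7.18 ± 0.318 in PBS and 3.38 ± 0.132 in F/F Tat, against 7.87 ± 0.765 in ΔMye Tat, so this ratio was low in F/F Tat alone.

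By mean TPM, the order in PBS was Junb, Atf3, Jund, Jun, Batf, Egr2, Fos, Fosl2, Egr1 and Fosl1. The ranges of Junb and Atf3 overlapped there, as did those of Egr2 and Fos. In F/F Tat it was Junb, Atf3, Jund, Batf, Fosl2, Jun, Egr2, Fosl1, Egr1 and Fos, with Junb and Atf3 again overlapping. Fos thus went from seventh to last. The order in ΔMye Tat was that of F/F Tat, with overlap between Jun and Egr2, between Fosl1 and Egr1 and between Egr1 and Fos.

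Other genes of the pathway were described from 8 lists. Among 14 tested relatives in the FOS, JUN, ATF and CREB families, 3 rose and 7 fell with Tat (adjusted p under 0.01), and the list had a median log2 fold change of -0.46, where 17% of all tested genes rose and 67.6% fell. After scaling 7 were higher and 4 lower (median 0.16), where 37.1% of all tested genes were higher and 38.1% lower. Batf2, a relative of Batf, was called higher, from 13.8 ± 0.803 to 129 ± 7.89 TPM (log2 fold change 3.21, adjusted p = 1.14e-21, limma), and it was at 124 ± 6.65 TPM in ΔMye Tat. Its difference between the Tat groups was -0.053 (adjusted p = 0.366), but -0.27 after scaling (adjusted p = 6.83e-04, both limma). Creb5 was also called higher, from 3.79 to 12.7 TPM. Of 5 MAF genes, which pair with FOS and JUN proteins or with each other, 2 rose and 1 fell (median -0.13), or 4 and 1 after scaling (median 0.50). Maff, a small MAF without a transactivation domain, was called higher, from 11.1 ± 1.08 to 38.1 ± 2.01 TPM (log2 fold change 1.78, adjusted p = 8.18e-16, limma), and it was at 50.2 ± 3.58 TPM in ΔMye Tat.

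Of 6 C/EBP family genes, 1 rose and 5 fell (median -1.09), or 1 and 4 after scaling (median -0.46). Beside these and the next lists, 17% of all tested genes rose and 67.6% fell, or 37.1% and 38.1% after scaling. Cebpa, a factor of myeloid differentiation, was at 174 ± 10.7 TPM in PBS and 7.77 ± 0.603 TPM in F/F Tat, against 19.2 ± 0.623 TPM in ΔMye Tat, with log2 differences of -4.47 with Tat (adjusted p = 2.66e-23) and 1.29 between the Tat groups (adjusted p = 5.05e-13, both limma). SRF and its cofactors, which drive Fos and the EGR genes, had 1 gene higher and 5 lower of 6 (median -0.87), or 1 and 3 after scaling (median -0.25), with Mrtfa called, from 23.1 to 7.20 TPM. After scaling Mrtfa was at -1.05 and not called. Of the EGR relatives and NAB corepressors 0 rose and 1 fell of 2 tested (median -0.35), as at an unadjusted p under 0.05, whereas 1 rose and 0 fell after scaling (median 0.28) and after quantile normalization (median 0.15). Both IRF partners of Batf rose (median 0.94, and 1.56 after scaling).

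The MAP kinases and their kinases had 6 genes higher and 5 lower of 13 with Tat (median 0.20), but 11 higher and 2 lower after scaling (median 0.83). Of all tested genes, 17% were higher and 67.6% lower, or 37.1% and 38.1% after scaling. Mapk14, which encodes p38α, was at 52.7 ± 3.42 TPM in PBS and 5.13 ± 0.411 TPM in F/F Tat, against 17.1 ± 0.567 TPM in ΔMye Tat. It was the 1 gene of the 8 lists called between the Tat groups, at a log2 difference of 1.72 (adjusted p = 2.59e-14, limma), though at 1.51 after scaling it was under the fold threshold. Map2k1, which encodes MEK1, the activator of ERK, was called higher with Tat, from 77.7 ± 2.73 to 239.9 ± 3.77 TPM, and was at 178 ± 7.04 TPM in ΔMye Tat.

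Among 16 other immediate-early genes, 12 rose and 4 fell with Tat (median 0.82), beside 17% and 67.6% of tested genes. In this list 5 were called higher and 3 lower, beside 5.21% and 19.4%. After scaling 12 were higher and 4 lower (median 1.45), beside 37.1% and 38.1%, with 7 and 1 called, beside 8.51% and 9.76%. Csrnp1 rose from 13.0 ± 3.47 to 156 ± 8.99 TPM (log2 fold change 3.61), Ier3, a modulator of cell survival, from 90.4 ± 4.63 to 654 ± 14.6 TPM (2.85) and Gadd45b, a stress sensor upstream of MAP kinases, from 81.1 ± 5.65 to 531 ± 11.6 TPM (2.71). Klf10 fell from 19.5 ± 1.28 to 3.75 ± 0.567 TPM (-2.36). All 4 differed between the Tat groups at an adjusted p under 0.01, by -1.08 for Ier3, -0.59 for Csrnp1, -0.16 for Gadd45b and 0.86 for Klf10. Between the Tat groups, the genes higher and lower in ΔMye Tat numbered 6 and 1 in the FOS, JUN, ATF and CREB list, 3 and 1 in the MAF, 4 and 0 in the C/EBP, 0 and 0 in the EGR and NAB (0 and 1 at an unadjusted p under 0.05, limma), 4 and 0 in the SRF, 5 and 1 in the MAP kinase, 4 and 5 in the immediate-early and 1 and 1 in the IRF list. Scaling changed these to 2 and 3, 1 and 2, 2 and 0, 0 and 1, 3 and 0, 4 and 5, 1 and 8, and 1 and 1. Of all tested genes, 38.8% were higher and 8.87% lower as deposited, and 16.4% and 18.8% after scaling.

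**Figure D4:**
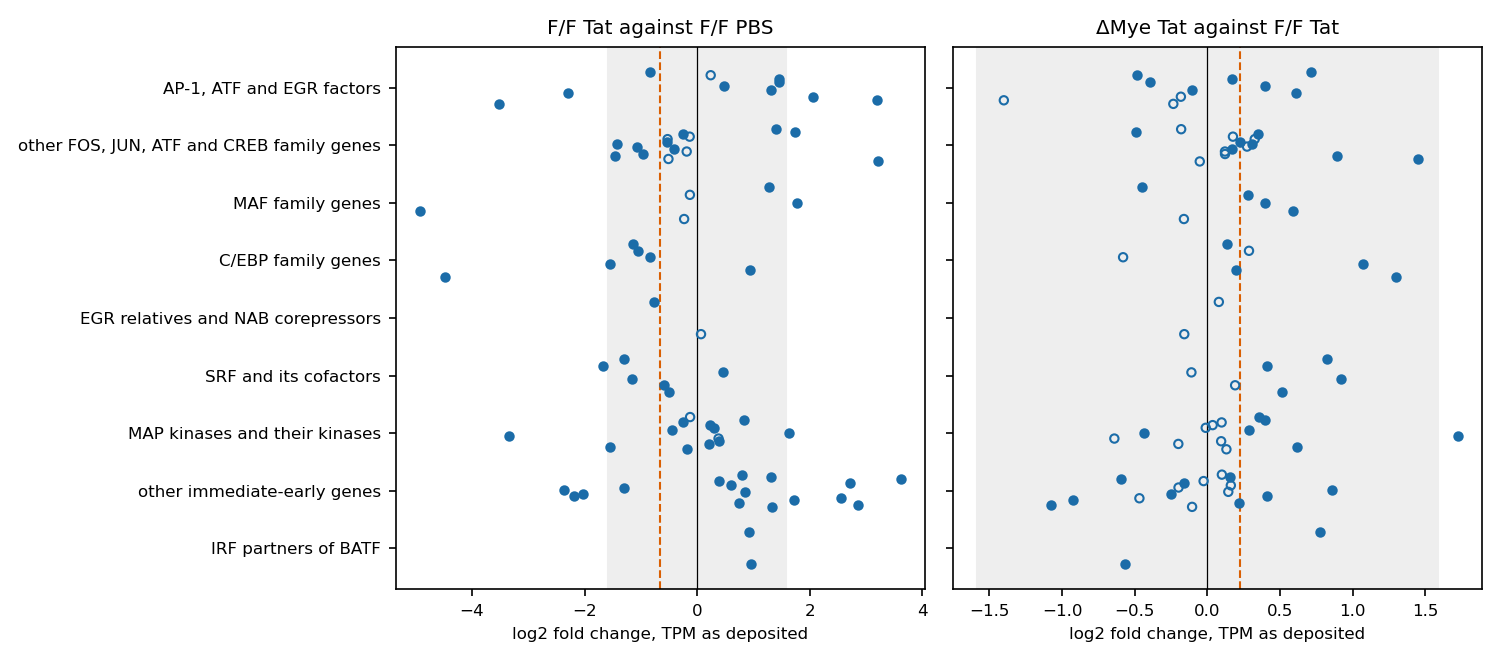
Log2 fold change (horizontal axes, TPM as deposited) of each tested gene of the 10 AP-1, ATF and EGR genes and the 8 other lists, in F/F Tat against F/F PBS (left) and in ΔMye Tat against F/F Tat (right). Filled points passed an adjusted p under 0.01, the grey band spans fold changes under 3 and the dashed line is the median tested gene. With Tat, Csrnp1 (3.61) is farthest to the right, and Mapk14 (1.72) is the 1 point outside the band between the Tat groups.

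The genes whose pattern over the 17 libraries was most like that of each member were found by Pearson's r on log2(TPM + 0.1) among genes that averaged at least 10 TPM. The points share libraries and fall into 3 groups, so these values describe the pattern only. For Fos they were Ptgir (0.992) and Plxnc1 (0.992), for Jun Ttyh2 (0.998) and Adam8 (0.997), for Jund Vasp (0.984) and Ccdc71l (0.982) and for Egr2 Ncf1 (0.979) and Hvcn1 (0.978). For Fosl2 they were Clmp (0.997) and Trim56 (0.996), for Junb Gbp3 (0.998) and Gadd45b (0.998), for Atf3 Dbnl (0.998) and Trafd1 (0.998), and for Batf Saa3 (0.995) and Cd14 (0.995). Fosl1 (Rnf135 at 0.908 and Lrrfip2 at 0.906) and Egr1 (Por at 0.921 and Slc16a3 at 0.883) had less close matches.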

How the data were processed

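RNA-Seq had been performed on 17 libraries, grouped by their labels. The authors made the deposited TPM values with Salmon, using Ensembl's GRCm38 annotation, listed by gene symbol, and compared groups with edgeR, a step that needs counts and was not repeated. Here, limma 3.58.1 (R 4.3.3, eBayes with trend) was run on log2(TPM + 0.1) of the 10451 genes that reached 1 TPM in 5 or more libraries, with the 3 groups in 1 fit and 14 residual degrees of freedom. Adjusted p (Benjamini-Hochberg) are over all tested genes. The added 0.1 makes fold changes of low genes smaller, but means of log values can also differ from ratios of mean TPM. For Fosl1, which was low and uneven in PBS, fold changes against PBS were larger on this scale than as ratios of mean TPM. Its log2 fold change was 3.20 in F/F Tat, beside a ratio of 7.01, and 1.79 in ΔMye Tat, beside a ratio of 2.62. A call needed a fold change over 3 beside an adjusted p under 0.01. Single genes were also compared by exact permutation tests (scipy 1.17.1). Coordinates and 31-base sequences came from GENCODE M21. The fit was tested on simulated data. The members and lists were chosen with earlier results of these data known. Beyond the members, the genes named were the 2 most alike per member, up to 4 called genes per list at 5 TPM or more, by size of the change, Ikbkb, and Jdp2, which was added afterwards. Some results of this rule, and a part of the genotype that all groups share, are not reported here. Other settings tried were median-ratio scaling, quantile normalization, a pseudocount of 0.5 or 1, a filter of 5 TPM or none, the adjusted p alone, a fit of only 2 groups, array weights with robust eBayes, and omission of single libraries.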

Additional observations from a re-analysis of the deposited data

How the results depend on the processing

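No paired analysis was possible because the groups share no replicate numbers. At the adjusted p alone, 6 members were higher and 3 lower with Tat, beside 17% and 67.6% of tested genes. In ΔMye Tat against F/F Tat 4 were higher and 3 lower, beside 38.8% and 8.87%. In ΔMye Tat against F/F PBS 6 were higher and 2 lower, beside 17.5% and 58.8%. With median-ratio scaling, 5 members were called higher with Tat (8.51% of tested genes) and 1 lower in ΔMye Tat against F/F Tat (0.603%). In ΔMye Tat against F/F PBS 1 was then called lower (6.27%), a count that was also 1 with quantile normalization (5.21%). In the other pathway lists, 4 genes were called lower with Tat after median-ratio scaling, against 7 as deposited, beside 9.76% and 19.4% of tested genes. In ΔMye Tat against F/F Tat, 0 of these lists' genes were called higher with median-ratio scaling, quantile normalization or a pseudocount of 1. Directions turned for Batf in ΔMye Tat against F/F Tat (-0.044 with median-ratio scaling) and, in ΔMye Tat against F/F PBS, for Egr1 (0.16 with median-ratio scaling and 0.51 with quantile normalization) and Egr2 (0.29 and 0.16). Scaling lowers or raises all genes of a library together, and which scale is right was not tested. With each library left out in turn, 498 of 510 values kept their direction and their side of an adjusted p of 0.01. That threshold was no longer passed by 7 values and newly passed by 5, and 0 turned in direction. The 7 were all Batf in ΔMye Tat against F/F Tat, and the 5 were Fosl1 in that comparison without PBS library 1, 3, 4 or 6, and Egr1 in ΔMye Tat against F/F PBS without ΔMye library 19 (-0.32, adjusted p = 0.00566, limma). Of the calls, which also need the fold change, that of Fosl1 in ΔMye Tat against F/F PBS was lost without PBS library 3 (1.49). It was also lost with a pseudocount of 0.5 (1.35) or 1 (1.06), which left 2 members called higher there instead of 3. The TPM keep no depth, so precision rests on the spread between libraries.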
